A study of Mus musculus with 69 samples.

Results

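Reads of 10 mouse genes were followed in the ventral striatum because their levels varied from mouse to mouse more in 1 of 2 lines than in the other. The genes are Sfi1, Zfp451, 9330151L19Rik, Dnaaf2 and Ublcp1, which spanned a wider range in the HDID1 line, and Slc5a5, 4833420G17Rik, Gm9752, 1700019G17Rik and Gm14029, which spanned a wider range in the HSNpt stock. They are 10 of 42279 genes in the count table, and all 10 were among the 16867 that passed the filter on low counts. They were chosen by their spread between lines, so every value that compares the lines for them is a description and carries no test. The choice was not a strict ranking. By the smallest p of the difference in spread the members stand between the 3rd and the 29th of all genes tested.

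HDID1 mice come from selection for a high blood ethanol reading in a drinking-in-the-dark test, and HSNpt is the heterogeneous stock that serves as its control, a population bred from several inbred strains. The HDID1 mice were 17 females and 18 males, the HSNpt mice 17 of each sex, and every mouse gave 1 library. All of them, controls included, had drunk 20% ethanol from a single bottle in a 4-day test, and the tissue was taken 3 weeks later. The labels give no age. With 1 selected line and 1 stock, what selection did and whatever else separates the populations cannot be told apart, and the labels do not say which mice share a litter.

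In a heterogeneous stock the mice carry different combinations of the founder strains' alleles, and a line bred from such a stock by selection keeps some of these alleles and loses others. A gene whose level depends on a nearby variant can then take a few distinct levels over the mice of one population and a single level in another. Mouse striatum consists largely of medium spiny neurons, the GABAergic output cells that receive dopamine, with interneurons and glia among them. These statements are background, and no genotype was used here.

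Counts per library summed to between 14077983 and 35257422. All 10 marker genes of medium spiny neurons had reads in every library, with a summed level of 280 to 7839 CPM (counts scaled to library size, per 1e6 reads) in HDID1 and of 1439 to 10050 CPM in HSNpt. Markers of the hypothalamus summed to between 6.32 and 1703 CPM in HDID1 and between 4.15 and 466 CPM in HSNpt. Of these 8 genes Hcrt was at 0 in some mice of both lines, and Oxt and Avp in some HSNpt mice. By a rule set after the data were seen, 11 libraries stand apart in their 5′ coverage or their spiny neuron markers, 9 of HDID1 and 2 of HSNpt. In these bulk samples, fewer cells of a type and less RNA per cell cannot be told apart.

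The 10 genes lie at 8 places in the genome. Dnaaf2 and 9330151L19Rik overlap on opposite strands of chromosome 12, where 1107 bases of their exons are shared, and 4833420G17Rik and Gm9752 overlap on opposite strands of chromosome 13, where 286 bases are shared. The libraries were stranded, but the counts did not separate the strands. In 34 pairs of exons that lie on opposite strands and share over 90% of the longer exon, with at least 2000 reads in the higher of each pair, the lower count was a median of 0.92 of the higher. Reads of such overlapping genes therefore cannot be told apart where their exons coincide.

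The bases that 4833420G17Rik shares with Gm9752 are an example. They are its exons 6, 7 and 8, all coding, which lie inside the exon of 2575 bases that holds nearly all reads of Gm9752. The spliced run below, from the GENCODE vM21 transcript of 4833420G17Rik (build GRCm38, plus strand, chr13:119472234-119477690 with introns left out), gives these 286 bases in capitals and 7 bases of exons 5 and 9 on either side in lower case.
4833420G17Rik exons 5 to 9: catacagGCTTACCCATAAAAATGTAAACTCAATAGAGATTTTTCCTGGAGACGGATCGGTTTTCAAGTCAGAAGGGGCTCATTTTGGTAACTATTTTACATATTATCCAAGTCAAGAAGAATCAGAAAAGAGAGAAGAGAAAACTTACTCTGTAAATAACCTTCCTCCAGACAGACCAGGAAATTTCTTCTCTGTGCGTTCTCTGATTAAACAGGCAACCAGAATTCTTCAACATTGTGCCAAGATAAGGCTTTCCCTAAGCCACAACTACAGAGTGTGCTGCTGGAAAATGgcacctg
Reads of these 3 exons amounted to a median of 0.981 times the reads of the long Gm9752 exon over the 69 mice, with a range of 0.55 to 1.61. The highest ratio, 1.61, is too large for a part of a whole, so a read may be counted in several of these exons. How much of the level printed for Gm9752 comes from the shared bases is therefore not settled. Its agreement in pattern with 4833420G17Rik is not taken as a second observation.

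Promoters of Dnaaf2, 9330151L19Rik and 4833420G17Rik are shown, genes of the overlapping places. None was found for Gm9752, and the 4833420G17Rik window lies outside the bases shared with Gm9752. How far each pair varied apart from its shared bases is not shown by the gene counts. The sequences are from RefSeq, build GRCm38.p6, and run from 250 bases before to 50 bases after the annotated start. In the Dnaaf2 promoter the capitals mark a match to the X-box, the element that RFX factors bind in front of many genes of motile cilia.
Dnaaf2 promoter, minus strand, chr12:69198380-69198679: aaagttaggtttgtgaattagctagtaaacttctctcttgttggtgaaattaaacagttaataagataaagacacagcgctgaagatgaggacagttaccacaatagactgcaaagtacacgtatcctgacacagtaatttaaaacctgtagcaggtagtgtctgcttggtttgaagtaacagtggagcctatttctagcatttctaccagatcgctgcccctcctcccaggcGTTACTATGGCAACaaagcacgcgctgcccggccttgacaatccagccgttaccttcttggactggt
The match is found on both strands, begins 17 bases before the start, and is found in 0.962% of 32851 promoters. In the promoters of 9330151L19Rik, whose window lies inside the first exon of Dnaaf2, and of 4833420G17Rik, the capitals mark CCGGAA, the core that ETS factors bind, read on either strand, and for the latter also GGGCGG, the GC box, where neighbouring or overlapping matches run together.
9330151L19Rik promoter, plus strand, chr12:69196961-69197260: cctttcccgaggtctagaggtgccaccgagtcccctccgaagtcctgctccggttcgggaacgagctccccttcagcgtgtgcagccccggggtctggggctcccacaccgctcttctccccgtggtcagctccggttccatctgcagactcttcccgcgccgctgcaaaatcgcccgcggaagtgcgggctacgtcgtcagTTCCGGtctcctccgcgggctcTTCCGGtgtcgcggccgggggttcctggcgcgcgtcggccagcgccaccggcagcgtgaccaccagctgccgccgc
4833420G17Rik promoter, plus strand, chr13:119462509-119462808: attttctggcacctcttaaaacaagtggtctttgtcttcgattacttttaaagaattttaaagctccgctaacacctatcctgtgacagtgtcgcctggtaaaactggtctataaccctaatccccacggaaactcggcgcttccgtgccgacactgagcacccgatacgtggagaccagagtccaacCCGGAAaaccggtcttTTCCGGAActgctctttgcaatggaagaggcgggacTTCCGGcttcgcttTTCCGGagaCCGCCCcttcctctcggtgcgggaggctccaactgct
CCGGAA occurs in 14.9% of all promoters and GGGCGG in 35.7%. These motifs were picked after the sequences had been seen, and a match is a description of letters, not of binding.

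Sfi1 encodes a centrin-binding protein of the centrosome, known best from the yeast spindle pole body. It lies on the minus strand of chromosome 11 from 3131850 to 3193463 (mm10) and has 29 exons in the table. In HDID1 it ranged from 21.7 CPM through a median of 62.9 to 151 CPM, and in HSNpt from 21.2 through 32.2 to 58.1 CPM. The lower ends of both lines nearly coincided, and 19 of 35 HDID1 mice lay above the highest HSNpt mouse. The SD of log2 CPM was 0.71 in HDID1 and 0.37 in HSNpt. The widest gap between neighbouring mice was 0.44 on the log2 scale in HDID1, between the lowest mouse and the other 34, and 0.17 in HSNpt.

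Zfp451 is a zinc finger gene whose human counterpart joins the small modifier SUMO to other proteins. It lies on the minus strand of chromosome 1 from 33761545 to 33814595, with 17 exons. HDID1 mice ranged from 37.8 through a median of 78.3 to 153 CPM and HSNpt mice from 39.5 through 57.01 to 66.9 CPM. The lines shared their lower end, and 20 of 35 HDID1 mice were above every HSNpt mouse while 1 was below them all. Its SD of log2 CPM was 0.50 in HDID1 and 0.21 in HSNpt.

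Dnaaf2, also known as kintoun, helps to assemble the dynein arms of motile cilia in the cytoplasm before they are carried to the axoneme. It occupies the minus strand of chromosome 12 from 69189087 to 69198429. The noncoding 9330151L19Rik, annotated in GENCODE as a transcript from a bidirectional promoter, runs the other way from 69197211 to 69199868. In 9330151L19Rik the HDID1 mice ranged from 3.40 through a median of 12.2 to 22.7 CPM and the HSNpt mice from 11.6 through 17.2 to 21.8 CPM. Here the lines shared their upper end, and 16 of 35 HDID1 mice lay below the lowest HSNpt mouse. Dnaaf2 ranged from 6.48 through 11.7 to 18.4 CPM in HDID1 and from 10.99 through 13.4 to 15.6 CPM in HSNpt. Again 16 of 35 HDID1 mice were below all HSNpt mice, and 4 were above them all. The SD of log2 CPM of 9330151L19Rik was 0.79 in HDID1 against 0.22 in HSNpt, and that of Dnaaf2 was 0.40 against 0.15.

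Ublcp1 encodes a phosphatase with a ubiquitin-like domain that acts on the proteasome in human cells. It lies on the minus strand of chromosome 11 from 44454571 to 44470498. HDID1 mice ranged from 20.1 through a median of 29.2 to 43.5 CPM and HSNpt mice from 17.8 through 23.4 to 38.6 CPM. Most HDID1 mice, 29 of 35, fell inside the HSNpt range, and 6 were above it. The SD was 0.34 in HDID1 and 0.20 in HSNpt, the ratio nearest to 1 among the 10 genes. Without the 11 libraries that stand apart the difference in mean absolute deviation went from 0.15 to 0.10 on the log2 scale. Of those libraries 9 belong to HDID1, the line with the wider spread.

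Among the genes that varied more in HSNpt, Slc5a5 is the sodium-iodide symporter, which carries iodide into thyroid cells. It lies on the minus strand of chromosome 8 from 70882889 to 70892757. HSNpt mice ranged from 2.69 through a median of 6.47 to 13.7 CPM and HDID1 mice from 4.27 through 6.67 to 11.5 CPM. The medians were close, and the HSNpt mice went past both ends of the HDID1 range, with 7 of 34 below it and 3 above. The SD of log2 CPM was 0.65 in HSNpt and 0.31 in HDID1.

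4833420G17Rik is a protein-coding gene on the plus strand of chromosome 13 from 119462759 to 119486117. HSNpt mice ranged from 8.50 through a median of 30.1 to 42.3 CPM and HDID1 mice from 31.6 through 38.9 to 51.4 CPM. In HSNpt the widest gap parted 5 mice, at or below 12.2 CPM, from 29 mice at or above 19.8 CPM. The 5 low mice were 2 females and 3 males, and 19 of 34 HSNpt mice lay below the lowest HDID1 mouse. Gm9752, a processed transcript on the minus strand from 119473804 to 119476761, ranged from 1.74 through 4.80 to 7.40 CPM in HSNpt and from 4.47 through 5.595 to 7.66 CPM in HDID1. Its SD of log2 CPM was 0.50 in HSNpt and 0.20 in HDID1, beside 0.61 and 0.15 for 4833420G17Rik.

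The steepest steps were seen in 1700019G17Rik, which RefSeq and GENCODE now call Nat8f4, a member of the N-acetyltransferase 8 family. It lies on the minus strand of chromosome 6 from 85899051 to 85904884. HDID1 mice ranged from 1.17 through a median of 1.60 to 2.57 CPM. In HSNpt 21 mice stood at 4.03 CPM or less, down to 0.850, and 13 mice at 10.1 CPM or more, up to 16.4, with none between. The 13 high mice were 5 females and 8 males, and 20 of 34 HSNpt mice were above the highest HDID1 mouse. The SD of log2 CPM was 1.27 in HSNpt and 0.30 in HDID1. The reads behind these levels were 14 to 452 per HSNpt library and 19 to 51 per HDID1 library.

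Gm14029, an antisense noncoding gene on the minus strand of chromosome 2 from 129182482 to 129183947, showed the opposite arrangement. HDID1 mice ranged from 1.23 through a median of 2.27 to 3.50 CPM. In HSNpt 15 mice stood at 0.374 CPM or less and 19 mice between 0.816 and 2.52 CPM. Of the 15 mice 4 had no read of it, and a count of 0 allows up to 3 reads, at most 0.183 CPM in those libraries, counting error only. The 15 were 7 females and 8 males. Although 21 of 34 HSNpt mice lay below every HDID1 mouse, 13 lay within the HDID1 range. The SD was 1.63 in HSNpt and 0.36 in HDID1, on at most 63 reads a library.

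**Figure D1:**
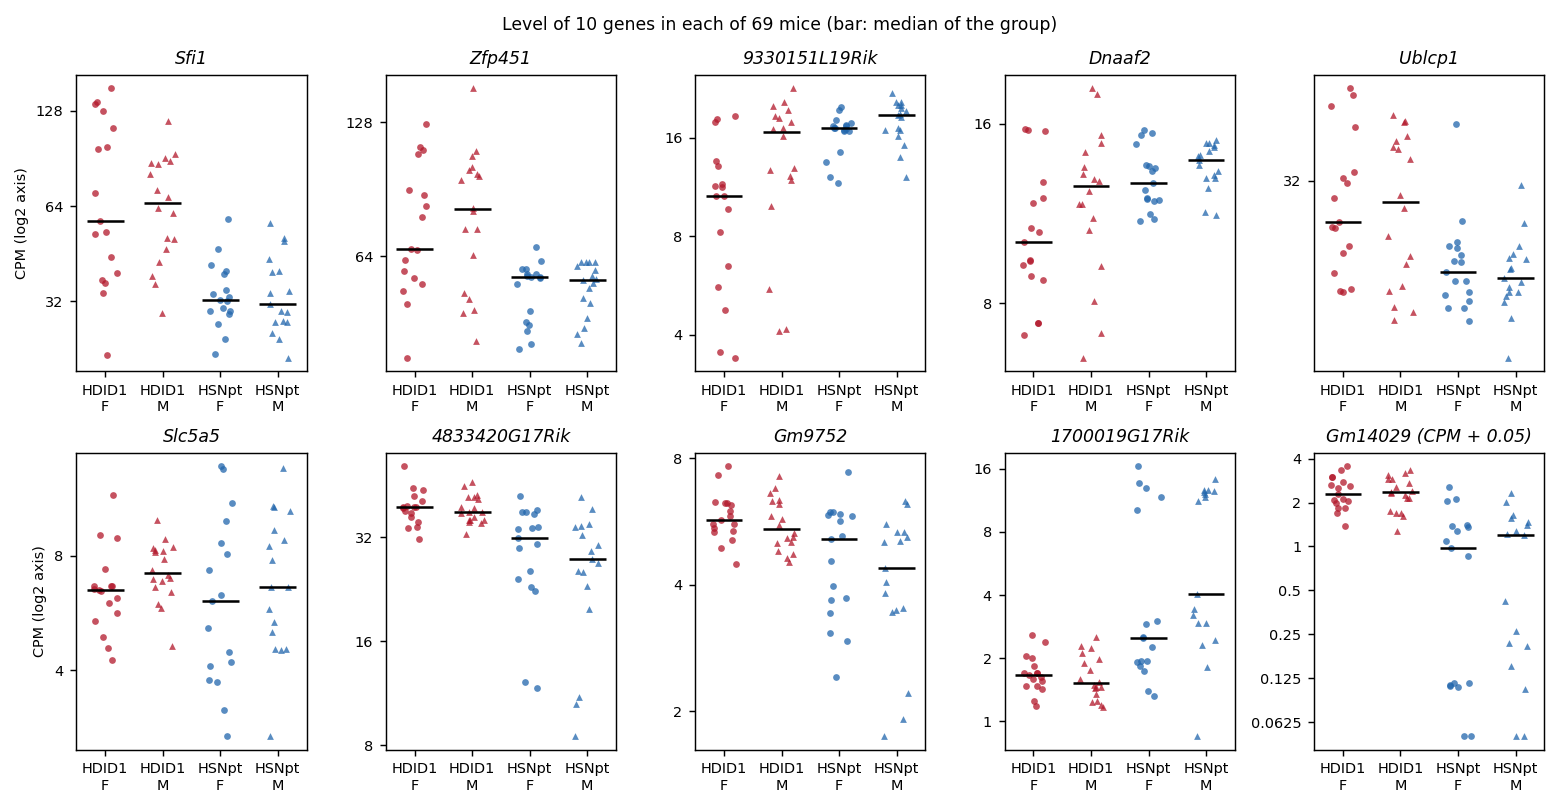
Level of each gene in every mouse, in CPM on a log2 axis, by line and sex (F female, M male), with a bar at the group median. For 1700019G17Rik, 13 HSNpt mice sit at 10.1 CPM or more and the other 21 at 4.03 CPM or less, while for Sfi1 the HDID1 mice fill the range from 21.7 to 151 CPM without a wide gap.

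Across all 16867 genes tested the SD of log2 CPM in HDID1 was a median of 1.16 times that in HSNpt, and 73.8% of genes varied more in HDID1. Among the members the ratio ran from 1.70 for Ublcp1 to 3.51 for 9330151L19Rik where HDID1 varied more, and from 0.479 for Slc5a5 down to 0.223 for Gm14029 where HSNpt did. In all, 52 genes had a ratio of 2 or more and 44 a ratio of 0.5 or less. In the fit of absolute deviations with limma, 8 genes passed an adjusted p of 0.05, or 0.0474% of those tested, all of them more variable in HSNpt, a direction that was mixed with deviations from the group mean (21 wider in HDID1 and 42 in HSNpt) and with no filter (4 and 19), and 1 gene was wider in HDID1 with a prior count of 0.5 and without the libraries that stand apart. This contrast chose the members, so nothing is read from the fact that 3 of the 8 are among them, Slc5a5, 1700019G17Rik and Gm14029, or that all 10 had p under 0.05 before adjustment, as 3.6% of all genes did. The other 5 are Gm10478, 2410018L13Rik, Zfp125, Amd-ps4 and Zfp949, named here after their values were seen. Gm10478 had no read in any HDID1 mouse, and Zfp125 reached at most 0.106 CPM there. For Gm10478 and Zfp125 the wider spread in HSNpt was thus set by where they had reads, and nothing is read from its direction.

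Males and females gave the same order of the lines for all 10 genes. Mice of both sexes took part in the choice of the genes, so this order is a description and no test. Sfi1 had an SD of 0.86 in HDID1 females and 0.56 in HDID1 males, beside 0.34 and 0.41 in HSNpt. Gm14029 had 1.72 and 1.58 in HSNpt females and males, beside 0.36 and 0.38 in HDID1. Whether spread differed between the sexes played no part in the choice, and the limma fit found it for 0 of the 10 members and for 0 of all genes (0%), with 634 genes or 3.76% at p under 0.05 before adjustment. The smallest adjusted p among the members was 0.829, for Sfi1, whose mean absolute deviation was 0.09 lower in males on the log2 scale (95% interval -0.25 to 0.06), and the same adjusted p was given to Slc5a5 at -0.08 (-0.22 to 0.05).

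**Figure D2:**
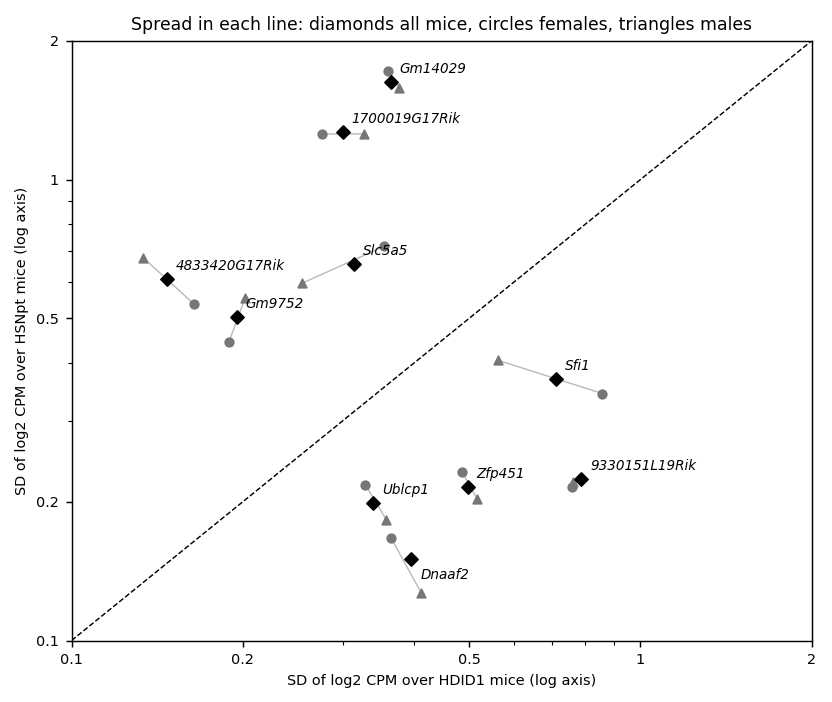
SD of log2 CPM over HDID1 mice against that over HSNpt mice for each gene, on log axes, for all mice (diamonds) and for each sex (circles and triangles). The 5 genes below the dashed line of equal spread varied more in HDID1 in both sexes and the 5 above it more in HSNpt, out to 0.36 against 1.63 for Gm14029.

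Levels were then compared between the sexes over both lines, which the choice did not use. By edgeR's quasi-likelihood test 0 of the 10 members passed, beside 16 of 16867 genes (0.0949%). The nearest was 9330151L19Rik, higher in males by 0.30 on the log2 scale (SE 0.12, 95% interval 0.05 to 0.54), with p = 0.0192 before adjustment and an adjusted p of 0.551. It was the only member with p under 0.05 before adjustment, as 9.07% of all genes had. Its HDID1 females ranged from 3.40 through a median of 10.6 to 18.6 CPM and its HDID1 males from 4.10 through 16.6 to 22.7 CPM, ranges that overlap nearly throughout. Dnaaf2, which shares its reads, was higher in males by 0.13 (SE 0.07, interval -0.01 to 0.27, adjusted p = 0.560). The estimates of the other 8 lay between -0.10 and 0.20, and the interval was widest for Gm14029, from -0.57 to 0.51.

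The blood ethanol reading taken at the end of the drinking test had a median of 1.498 in HDID1 and 0.256 in HSNpt, in a unit the file headers do not state. It was 0 in 16 of 34 HSNpt mice and in 1 of 35 HDID1 mice, which limits what a slope within HSNpt can show. Within line and sex, the level of 0 of the 10 members and of 0 genes in all (0%) followed the reading at an adjusted p under 0.05 by edgeR, and 288 genes (1.71%) had p under 0.05 before adjustment. The DESeq2 Wald test also called 0 genes. Slopes of the members ran from -0.10 for 9330151L19Rik to 0.07 for Slc5a5 and 1700019G17Rik on the log2 scale per unit of the reading, with 4 above 0 and 6 below. Intervals were narrowest for Ublcp1, from -0.12 to 0.08, and widest for Gm14029, from -0.36 to 0.47.

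Exon values are described for Sfi1, Zfp451, Dnaaf2, Ublcp1, Slc5a5 and 4833420G17Rik, and not for the other members. The exons of Zfp451, Dnaaf2, Ublcp1 and Slc5a5 described first were picked after their values were seen, and those named by the rule follow them. In 4833420G17Rik every exon correlated with the rest of the gene over the 69 mice, at 0.58 to 0.88, and in Sfi1 the values ran from 0.11 for exon 1 to 0.92 for exon 28. In Zfp451, exon 5, of 11478 bases (chr1 33792136 to 33803613), held a median of 76.1% of the reads in HDID1 and 70.1% in HSNpt. This exon ranged from 23.4 through 57.9 to 129 CPM in HDID1 and from 26.3 through 38.97 to 47.4 CPM in HSNpt. Exon 12, of 1595 bases, had medians of 5.398 and 5.70 CPM in the lines, and exon 16 had 0.549 and 0.550 CPM. Correlation with the rest of the gene over the 69 mice went from 0.80 for exon 1 to -0.40 for the last exon, and the ratio of SDs between lines was 2.51 for exon 5 and 1.34 for the last exon.

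In Dnaaf2 the first exon (69196492 to 69198429), which holds the bases shared with 9330151L19Rik, ranged from 3.47 through 7.01 to 13.96 CPM in HDID1 and from 7.61 through 10.2 to 11.8 CPM in HSNpt. Its last exon ranged from 1.32 through 2.76 to 6.69 CPM and from 1.33 through 2.52 to 5.99 CPM, nearly the same in both lines. Within HDID1 the first exon correlated with 9330151L19Rik at r = 0.89, the middle exon at -0.19 and the last exon at 0.32, over 35 mice. The high value was thus that of the exon in which the bases of both genes coincide.

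In Ublcp1 the last exon, of 1045 bases, ranged from 6.93 through 11.4 to 31.4 CPM in HDID1 and from 6.44 through 8.56 to 15.6 CPM in HSNpt, and held a median of 39.1% of the gene's reads in HDID1. Exons 7, 8 and 10 had SDs of 0.33 to 0.37 in HDID1 and 0.36 to 0.39 in HSNpt, with no wider spread in HDID1 for exons 7 and 8. In Slc5a5 the last 4 exons, 12 to 15, had median levels of 0.409 to 4.19 CPM in HDID1 and 0.418 to 3.47 CPM in HSNpt. Each of the other 11 had a median of at most 0.124 CPM in either line, so the reads cover the 3′ end of the gene and do not trace the full coding transcript. The widest difference in spread within Slc5a5 was in exon 14, with an SD of 0.71 in HSNpt and 0.37 in HDID1.

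By the rule on shares of a gene's reads, 5 exons stood out within their gene, all at low levels. Exon 2 of Zfp451, of 84 bases, had a median of 0.172 CPM in HDID1, with a highest value of 0.679, and a median of 0 in HSNpt with a highest value of 0.0584. Exon 3 of Sfi1 had a median of 0.106 CPM in HDID1 and of 0 in HSNpt, with highest values of 1.00 and 0.277. Exons 1 and 20 of Sfi1 and exon 1 of Slc5a5 had mean levels of 0.174, 0.170 and 0.121 CPM, at which their shares move with single reads.

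**Figure D3:**
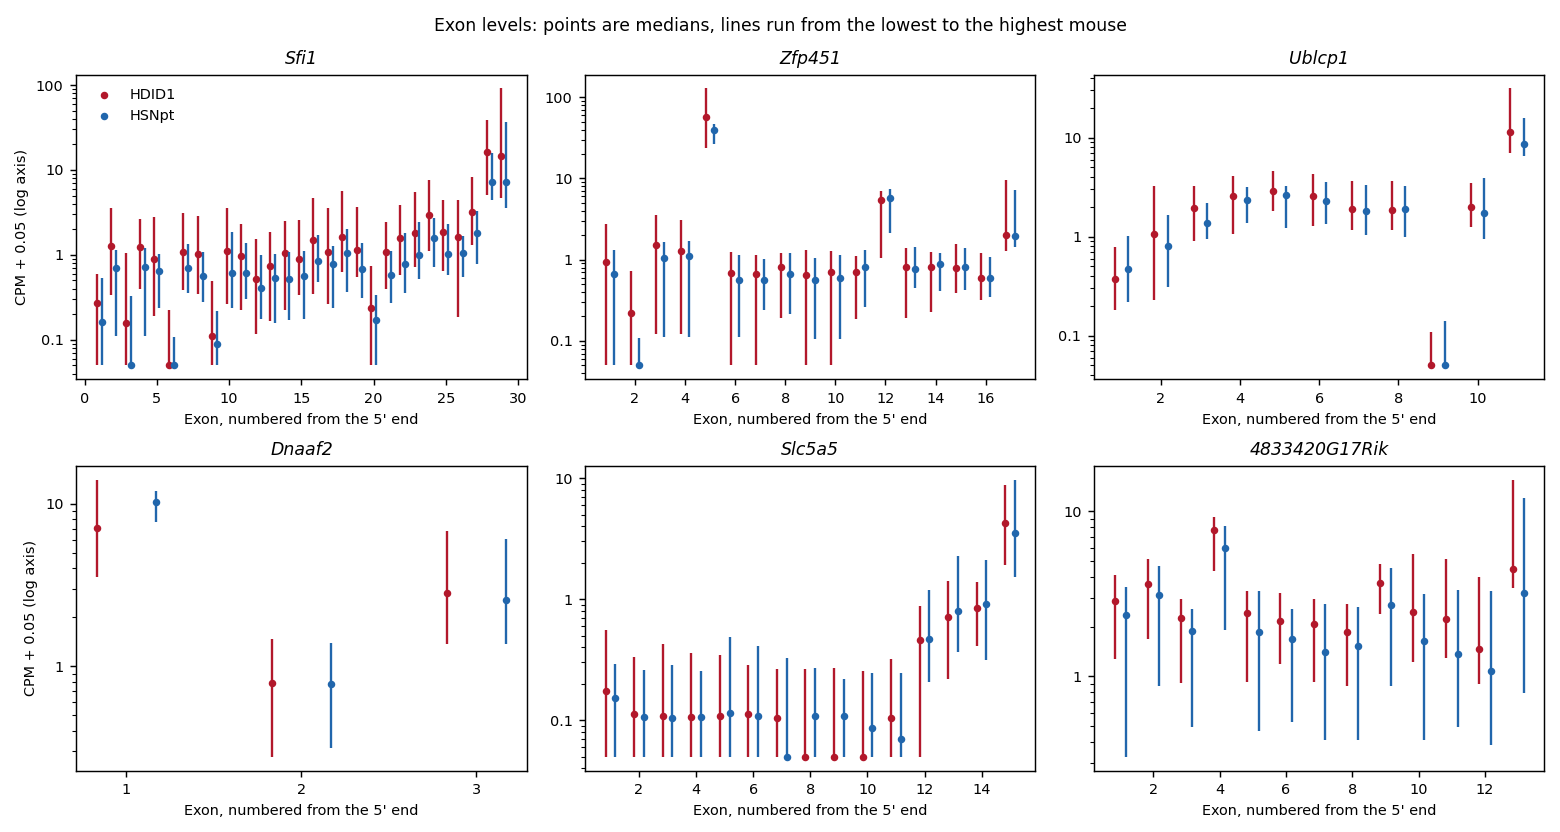
Level of each exon, in CPM plus 0.05 on a log axis, with exons numbered from the 5′ end; points are medians over mice and lines run from the lowest to the highest mouse. In Zfp451 exon 5 the HDID1 mice reach 129 CPM and the HSNpt mice 47.4, while the medians of exon 16 are 0.549 and 0.550, and in Slc5a5 only exons 12 to 15 have medians above 0.124 CPM.

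For each gene the 3 others of most similar pattern were taken by the Pearson correlation of log2 CPM over the 69 mice, with the mean of line and sex taken off. Neighbours within 500 kb were added where the correlation was at least 0.5 in size. These values are descriptions with no test, since they are the highest of 16866. All genes of a mouse share its library, depth and dissection, and differences in these between mice can also make genes alike.

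Sfi1 was most like Pisd-ps1 at r = 0.68, whose end lies 846 bases from its own, then Gm11399 at 0.68, which lies within it on the opposite strand and shares 77 exon bases, and Pisd-ps2 on chromosome 17 at 0.64. Gm11400, inside Sfi1, followed at 0.63. In HDID1 the correlation with Pisd-ps1 was 0.83 and in HSNpt 0.70, although Pisd-ps1 itself varied more in HSNpt, with SDs of 0.58 and 0.90. Of the 50-base words in Sfi1 transcripts 3.98% recur in transcripts of 16 other genes, which can split or share its reads.

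4833420G17Rik was most like its overlapping partner Gm9752 at 0.88, then Ccl28, a chemokine of mucosal tissues, at 0.85 and a distance of 138 kb, and 3110070M22Rik at 0.70. Zfp131 and Gm7120, also within 500 kb, stood at 0.66 and 0.57. In all 5 of 9 tested neighbours within 500 kb had a correlation of at least 0.5, beside 0.0415% of all genes, a share that counts these neighbours too. The 5 include Gm9752, which shares exon bases with 4833420G17Rik. They also include 3110070M22Rik and Gm7120, whose spans overlap on opposite strands, so they are not 5 separate observations. Within lines, for Ccl28 r was 0.92 in HSNpt and -0.22 in HDID1, and for Zfp131 0.84 and -0.31. Among the 29 HSNpt mice above the gap, r with Ccl28 was 0.62 and with Zfp131 0.48, and 5 mice below it are too few for a value. Ccl28 ranged from 0 through 2.74 to 5.15 CPM in HSNpt and from 2.41 through 4.26 to 7.74 CPM in HDID1.

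For 1700019G17Rik the most similar genes were not neighbours. Fggy, a carbohydrate kinase gene on chromosome 4, and Zfp125 and Gm10478, close to each other on chromosome 12, were taken by the rule, and 0 of 19 tested neighbours within 500 kb reached 0.5. Because the HSNpt mice fall into separate levels, the correlation is given within each. Among the 21 lower mice it was 0.62 with Fggy, 0.62 with Zfp125 and 0.63 with Gm10478, and among the 13 higher mice it was 0.61, 0.25 and 0.19. Fggy ranged from 0.121 through 4.27 to 17.6 CPM in HSNpt and from 0 through 0.353 to 1.51 CPM in HDID1. Gm10478 had no read in any HDID1 mouse and a median of 0.548 CPM in HSNpt. Words of 50 bases shared with Nat8f2, a family member, make up 18.1% of those in the transcripts of 1700019G17Rik, so some of its reads may come from that gene or be lost to it.

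Gm14029 was most like AI847159, whose 5′ end lies 1815 bases away on the same strand, then Adam33, 1.87 Mb away, and BC051142 on chromosome 17. Among the 15 lower HSNpt mice the correlation with AI847159 was 0.68, with Adam33 0.19 and with BC051142 -0.59, and among the 19 higher mice 0.33, 0.37 and -0.22. AI847159 ranged from 0 through 0.480 to 1.81 CPM in HSNpt and from 0.628 through 1.302 to 3.64 CPM in HDID1.

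Beside each other, 9330151L19Rik and Dnaaf2 had r = 0.85. Both were next most like Snapc1, a subunit of the complex that starts transcription of small nuclear RNA genes, 4.77 Mb away and in the opposite sense, at -0.65 and -0.69, and Mipol1, at -0.55 and -0.60 and 11.7 Mb away. Within lines, for 9330151L19Rik and Snapc1 r was -0.78 in HDID1 and 0.08 in HSNpt, and for Mipol1 -0.80 and -0.05. Snapc1 also varied more in HDID1, from 14.6 through 24.9 to 38.8 CPM, than in HSNpt, from 13.8 through 17.2 to 28.4 CPM. Mipol1 did not, with SDs of log2 CPM of 0.30 in HDID1 and 0.32 in HSNpt. Of the 50-base words in Dnaaf2 transcripts 68.1% recur in 7 other genes, 30.3% in 9330151L19Rik on the opposite strand and 21.2% and 19.5% in Gm49383 and Gm49384 on the same strand, so its reads are uncertain beyond the shared exon as well. Klhdc1, 41.3 kb from 9330151L19Rik, stood at -0.51.

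Ublcp1 was most like Pttg1, or securin, the inhibitor of separase, 1.03 Mb away, at 0.77 over all mice, 0.87 in HDID1 and 0.47 in HSNpt. Pttg1 ranged from 0.760 through 3.56 to 51.2 CPM in HDID1 and from 0.133 through 1.13 to 5.80 CPM in HSNpt. Kbtbd11 on chromosome 8 and the transcriptional corepressor Tle4 on chromosome 19 followed at -0.72 and -0.71, and Ebf1, a transcription factor 150 kb away, at -0.52. In Ublcp1 26.5% of the 50-base words recur in Gm12663.

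Zfp451 was most like Inpp4a, an inositol polyphosphate phosphatase 3.49 Mb away, at 0.76, then Dst, the cytoskeletal linker dystonin, 191 kb away, at 0.71 and the dolichol kinase Dolk at -0.65. Gm26788 and Prim2, a primase subunit, within 500 kb, had 0.54 and -0.55. Dst was near 0 throughout, from 0 through a median of 0.638 to 1.32 CPM in HDID1 and from 0 through 0.769 to 1.56 CPM in HSNpt. Gm26788 lies within the span of Dst on the opposite strand, so Dst and Gm26788 are not separate observations. The genes named stand for many. A correlation of at least 0.5 in size was found for 3230 genes or 19.2% of all with Zfp451, and for 1838 genes or 10.9% with Ublcp1. For Gm14029 there were 3 and for 9330151L19Rik 4.

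Slc5a5 was most like Lpl, the lipoprotein lipase, 1.98 Mb away, at -0.62, the connexin Gjb2 at 0.62 and the forkhead factor Foxd1 at 0.61, with Tmem59l, 396 kb away, at 0.58. In HSNpt these were -0.78, 0.67, 0.63 and 0.69, and in HDID1 -0.50, 0.59, 0.69 and 0.65. Apart from the 2 overlapping pairs, the 43 pairs of members had correlations between -0.24 and 0.26.

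**Figure D4:**
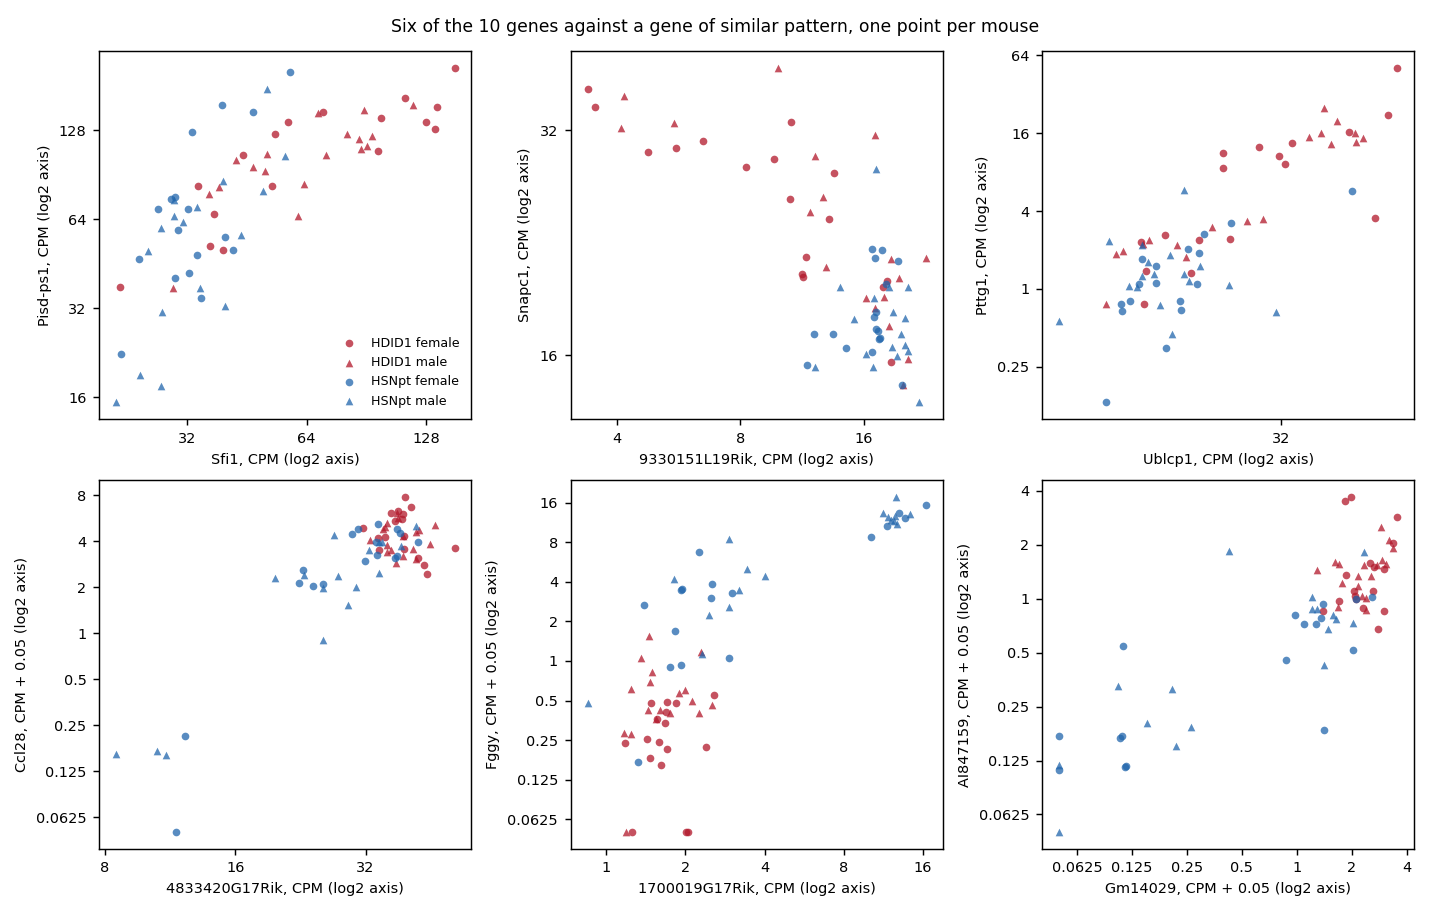
Levels of 6 of the genes against a gene of similar pattern, 1 point per mouse, both axes in CPM on a log2 scale (with 0.05 added where a gene had mice at or near 0). In the panels of 4833420G17Rik and Ccl28 and of 1700019G17Rik and Fggy a set of HSNpt mice, 5 and 13 in number, lies apart from the rest.

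**Figure D5:**
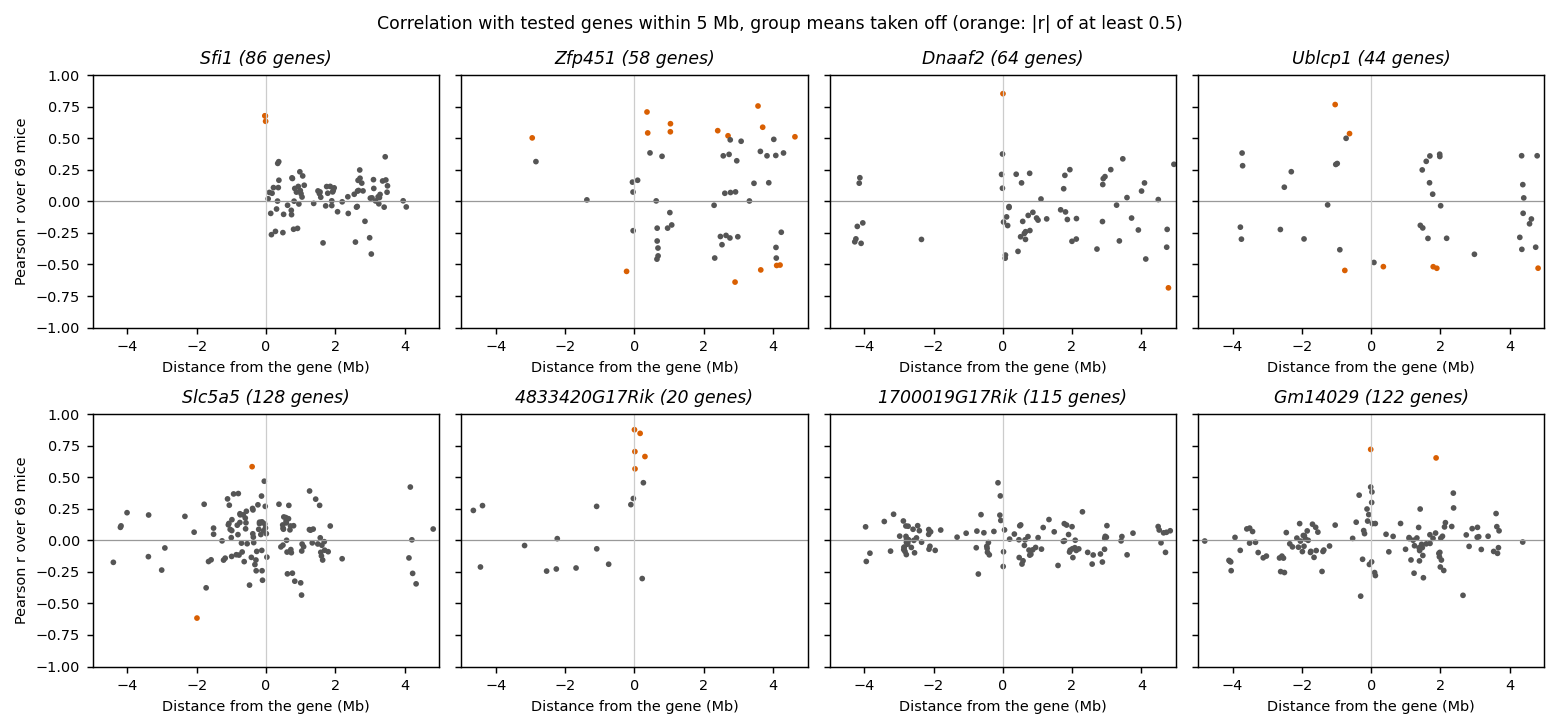
Pearson correlation with every tested gene within 5 Mb, against distance from the gene in Mb, over 69 mice with group means taken off; orange points are at least 0.5 in size. Next to 4833420G17Rik 5 neighbours reach 0.57 to 0.88, and around 1700019G17Rik none reaches 0.5.

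Some members moved with measures of the libraries themselves. For this, 3 measures were set against the 10 genes, 30 relations in all, with group means taken off and p from 100000 permutations of mice within line and sex: the balance of reads between the 5′ and the 3′ exons of 8418 genes, and the scores of spiny neuron and hypothalamus markers. Adjusted over the 30, 6 passed 0.05 by Pearson's r and 5 of these also by Spearman's rho. The relations were computed for the 10 members alone. The share of all genes that would pass is therefore not known, and the relations are not called particular to the members. Zfp451 was higher where 5′ exons had more reads (r = 0.449, p = 3e-05, adjusted p = 0.0003; rho = 0.503, p = 1e-05, adjusted p = 0.00015), and r was 0.326 without the 2 libraries farthest from the median. A p of 1e-05 is the smallest that these permutations can give.

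Ublcp1 was lower where spiny neuron markers were high (r = -0.482, p = 9e-05, adjusted p = 0.000675; rho = -0.477, p = 8e-05, adjusted p = 0.00054; r = -0.53 without the 2 farthest libraries), as it was for 10 of the 10 markers taken singly. It was higher where hypothalamus markers were high (r = 0.591, p = 1e-05, adjusted p = 0.0003; rho = 0.549, p = 1e-05, adjusted p = 0.00015; r = 0.569 without them), with 7 of 7 tested markers above 0. Its relation to the 5′ balance passed by r alone (r = -0.322, p = 0.00884, adjusted p = 0.0442; rho = -0.272, p = 0.0192, adjusted p = 0.0822; r = -0.246 without them).

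Slc5a5 had the same signs. It was lower with spiny neuron markers (r = -0.314, p = 0.00429, adjusted p = 0.0257; rho = -0.472, p = 3e-05, adjusted p = 0.0003; r = -0.459 without the 2 farthest libraries) and higher with hypothalamus markers (r = 0.484, p = 2e-05, adjusted p = 0.0003; rho = 0.473, p = 9e-05, adjusted p = 0.00054; r = 0.475 without them), again for 10 of 10 and 7 of 7 markers. The part of tissue makeup and coverage in the spread of Zfp451, Ublcp1 and Slc5a5 was not tested. No relation of the other 7 members to these measures passed.

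Genes related to the members by function were counted as a set beside each. Of 18 tested genes of centrioles and centrin binding, 13 assembly factors of dynein arms, 21 genes of SUMO conjugation and removal, 5 sodium-coupled transporters of the Slc5 family and 14 CTD-type phosphatases and proteasome regulators, 0 passed for the line difference in spread, the sex difference in level or spread, or the slope on blood ethanol. Over all genes tested 0.0474% passed for the line difference in spread and 0.0949% for sex in level. For sex in spread and for the slope 0% did. With shares this low nothing is read from the counts of the lists. The median difference in spread, HDID1 minus HSNpt, was 0.03 for the centriole and SUMO genes, 0.05 for the dynein assembly factors, 0.02 for the Slc5 genes and 0.07 for the last list, beside 0.03 for all genes.

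Taken as the member of smallest p in its list, Dnaaf3, another dynein assembly factor, ranged from 0 through 1.32 to 4.05 CPM in HSNpt and from 0.372 through 2.22 to 4.07 CPM in HDID1 (limma difference in spread -0.30, adjusted p = 0.858). The SUMO protease Senp6 had SDs of 0.21 in HDID1 and 0.11 in HSNpt, and the centriole gene Cep152 0.46 and 0.25. The choline transporter Slc5a7 had 0.64 and 0.67, although its mean absolute deviation was 0.10 higher in HDID1, and the phosphatase Ctdspl 0.34 and 0.23. By limma all 5 had an adjusted p of 0.858.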

How the data were processed

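The authors deposited tables of raw, unscaled read counts for genes and for exons, in which each column is a mouse. The submitters' processing notes name CASAVA, FastQC, STAR, bedtools, edgeR and build mm10. Versions and the strand setting of counting: not given in the sources used here. Members and gene lists were chosen with earlier results of these data known.

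Counts were filtered with filterByExpr on the 4 groups of line and sex and scaled by TMM. Levels are CPM on TMM library sizes, and SDs are of log2 CPM with a prior count of 2. Sex differences and the slope on the blood ethanol reading, with the 4 group means in the model, were tested with edgeR 4.0.16 (quasi-likelihood, R 4.3.3), and DESeq2 1.42.0 was an alternative. For spread, limma 3.58.1 was fitted to how far each log2 CPM lay, in absolute terms, from its group median. Standard errors for edgeR were derived from the fold change and its F statistic, and p-values were adjusted by Benjamini-Hochberg over all tested genes at 0.05. The sex fit in level and the line fit in spread were run on simulated counts, with extra spread put in HDID1 alone. The slope on blood ethanol and the sex difference in spread were not simulated, and no result here rests on these runs. Replicate numbers only name samples. The p-values rest on the spread between these mice and treat them as independent. Nothing says which mice are related, and if some are, the p-values may not hold.

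Genes named are the members, the 3 most correlated genes of each, neighbours within 500 kb at a correlation of at least 0.5 in size, and of each list the gene of smallest p. Exons named by rule had an SD of the log2 share of at least 1 and a mean of at least 0.1 CPM. Libraries stand apart beyond 3 scaled median absolute deviations in 5′ balance or spiny neuron score. Words of 50 bases were compared over GENCODE vM21 transcripts, and promoter matches over the RefSeq table, which held 6 members by symbol and 1700019G17Rik as Nat8f4.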

Additional observations from a re-analysis of the deposited data

How the results depend on the processing

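The count of genes whose spread differed between lines was 8 and lay between 8 and 12 with DESeq2 factors, a prior count of 0.5, and without the 11 libraries that stand apart or the library of largest total. It was 23 with no filter and 63 with deviations from the group mean, with 10 members among them in place of 3, and without the 11 libraries 4 members were among them. These member counts come from the contrast that chose the members, and nothing is read from them. For spread between sexes the count went from 0 to 2 with no filter and to 3 with the group mean. Counts for sex in level ran from 13 to 23, beside 16, and the slope on blood ethanol gave 0 throughout. None of the 190 member results outside the choosing contrast passed under any alternative run, the smallest adjusted p being 0.260.

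Some of these uncalled estimates changed sign. Without the libraries that stand apart, sex in level was 0.0604 for Gm14029, the blood ethanol slope 0.00379 for 4833420G17Rik and sex in spread 0.0257 for Zfp451. Without the largest library, sex in spread was 0.00412 for Zfp451 and 0.00381 for 9330151L19Rik. The slope within HSNpt alone was 0.131 for Sfi1, -0.0597 for Zfp451, 0.0110 for 9330151L19Rik, 0.0300 for 4833420G17Rik and -0.0709 for Gm14029. Within HDID1 alone it was 0.00428 for Gm9752, and with no filter 0.00231 for 4833420G17Rik. The cause was not tested.

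The ratio of SDs kept its direction for all 10 genes under the 6 alternatives run, but with the median absolute deviation it was 3.20 for Ublcp1, beside 1.70, and 0.396 for 4833420G17Rik, beside 0.241. These alternatives reuse the values that chose the genes, so the kept direction is a description and nothing is read from it. The set of libraries that stand apart was defined after seeing the data, in place of an earlier report's set, which was not used here. Depth limits Gm14029 and 1700019G17Rik most, at 0 to 63 and 14 to 452 reads a library. No paired analysis was possible because replicate numbers were given in accession order and pair no samples. A fit with the lab number of the file headers as a block was not run, since its meaning is not stated.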

Other observations

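The file headers give each mouse a lab number whose meaning they do not state. In HSNpt, 19 pairs of mice share the whole part of this number, and in HDID1 11 pairs do. For Gm14029 the median difference in log2 CPM was 0.73 over the 19 pairs and 1.56 over all 561 pairs of HSNpt mice. The same values were 1.06 and 1.46 for 1700019G17Rik, 0.20 and 0.43 for 4833420G17Rik and 0.45 and 0.68 for Slc5a5. In HDID1, Sfi1 had 0.46 over the 11 pairs and 0.74 over all 595, and 9330151L19Rik had 0.46 and 0.70, while Zfp451 had 0.49 and 0.50. Pairs with a shared number were not closer for every gene: in HSNpt Zfp451 had 0.31 and 0.19. The pairs are not independent, and no test was run.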
